A study of Mus musculus with 5 samples.

Results

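The genes described are 10 feedback inhibitors of receptor signalling in regulatory T cells (Tregs): the dual-specificity phosphatases Dusp1, Dusp2, Dusp4, Dusp5, Dusp6, Dusp10 and Dusp16, and the regulators of G protein signalling Rgs1, Rgs2 and Rgs16. They were chosen by symbol, and they are 10 of the 22040 gene symbols with a value in the deposited tables. All 10 were measured in every comparison, that is, 1 or both of the libraries listed them at 1 or above.

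Sorted Tregs of C57BL/6 mice carrying Foxp3Cre, a Cre recombinase driven in cells that express the Treg factor Foxp3, were sequenced as 5 mRNA libraries, 1 per group. Adipose tissue gave 4 of them: Tregs of 10-month-old Med23 fl/fl Foxp3Cre mice, in which Cre is meant to remove the Mediator subunit Med23, of 10-month-old Foxp3Cre mice, of 4-month-old obese Foxp3Cre mice, and of 4-month-old Foxp3Cre mice not labelled obese, called lean here. Lymph nodes (LN) of 4-month-old Foxp3Cre mice gave the fifth. The obese sample carries HFD in its title with no further account of how obesity was induced, and the labels state neither the sorting markers nor the number of animals per library. With 1 library per group no difference has a replicate check, and the intervals given cover counting error only.

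MAP kinases (ERK, JNK and p38) carry signals from antigen and cytokine receptors to the nucleus, and the same signals induce dual-specificity phosphatases that strip the activating phosphates from those kinases. RGS proteins speed the return of G protein alpha subunits to their inactive state and so shorten signalling by chemokine and other G protein coupled receptors. Both families are therefore brakes, many of them made on activation, and T cells are known to use Dusp and Rgs members in this way.

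Levels are given as CPM (counts per 1000000 counts), each listed value divided by the sum of its library's column and multiplied by 1000000. Ratios within 1 deposited table use the authors' scaled counts. Relative to CPM, the authors' scale multiplied ratios by 0.906 for lean against LN, 0.888 for obese against LN and 0.810 for the library labelled Med23 KO against Foxp3Cre. A gene counts as higher or lower when log2 of the ratio, with 1 added to both values, passes a 2-fold difference.

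The libraries held between 4595046 and 9694474 listed reads, the fewest in the library labelled Med23 KO. All 8 Treg markers were above 0 in every library, and Foxp3 stood at 155, 185, 180 and 216 CPM in the labelled Med23 KO, 10-month Foxp3Cre, obese and lean adipose libraries, against 52.5 CPM in LN. The markers were not level between libraries. Against Foxp3Cre, 3 of 8 were lower in the library labelled Med23 KO and 0 higher: Il2ra (5.10-fold), Tnfrsf4 (3.96-fold) and Tnfrsf18 (2.10-fold). Of all measured genes 34.9% were lower there and 28.6% higher. By CPM Tnfrsf18 had 406, against 691, and did not pass 2-fold. Il2ra was also 4.95-fold lower in obese than in lean. Against LN, 5 of 8 were higher and 0 lower in 10-month Foxp3Cre, 1 higher and 1 lower in obese, and 2 higher and 1 lower in lean. Of all measured genes 34.3%, 41.7% and 37.6% were higher in these comparisons, and 29.8%, 23.7% and 32.1% lower. Med23 itself was not lower in the library labelled Med23 KO (15.5 CPM) than in its Foxp3Cre counterpart (6.32 CPM), and the deleted exons are not known here, so this sum over the gene does not check the deletion. The obese and lean libraries stood apart from the other 3 in the Y-linked gene Ddx3y (562 and 560 CPM, against 0 in the others), in Xist (3.60 and 0 CPM, against 228 to 602) and in Gapdh (10.7 and 1.05 CPM, against 548 to 979). The 10-month Foxp3Cre library shares those features with LN, so the ratios of the 10 genes to LN are also given for that library, which differs from LN in age as well. Summed over 14 macrophage and dendritic cell markers, the level was 108, 658, 5032 and 919 CPM in the labelled Med23 KO, 10-month Foxp3Cre, obese and lean libraries, against 7.01 CPM in LN. Of those markers 6, 9, 14 and 12 were above 0 in the adipose libraries and 1 in LN. Fibroblast and mesothelial markers (8 genes) summed to 0, 48.9, 14.7 and 982 CPM in the same adipose libraries, against 8.56 CPM in LN. Erythroid markers (6 genes) summed to 8943, 1202, 1066 and 584 CPM, against 0 in LN. The part of these other cells, and of sex, in the results on the 10 genes was not tested. In bulk libraries, fewer cells that use a gene and less of its RNA per cell cannot be told apart.

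The proximal promoters are shown for the genes that held a motif for the factors through which ERK and cAMP signals reach feedback genes. Motifs were searched on both strands of the 250 bases before the start site in the RefSeq promoters used here (GRCm38.p6), which matched 8 of the 10 genes; those of Dusp4 and Rgs1 were not analysed here. The core of the cAMP response element, TGACG, was in 17.8% of all 32841 promoters and in 4 of the 8 genes: Dusp1, Dusp5, Dusp16 and Rgs2. The full element TGACGTCA, which contains that core, was in 1.55% of all promoters and in Dusp1. The CArG box, the site of serum response factor, was in 1.47% of all promoters and occurred as an adjoining pair in Dusp5, at positions -82 to -73 and -72 to -63. The AP-1 site TGANTCA, found in 6.75% of all promoters, was in none of the 8 windows. Capitals mark the matches.
Dusp1 (chr17:26508473-26508722, minus strand): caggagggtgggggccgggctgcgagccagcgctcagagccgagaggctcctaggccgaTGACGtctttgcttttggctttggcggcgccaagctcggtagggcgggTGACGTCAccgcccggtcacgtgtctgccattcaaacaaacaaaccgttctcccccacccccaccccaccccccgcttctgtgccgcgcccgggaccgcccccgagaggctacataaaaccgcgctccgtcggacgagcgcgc
Dusp5 (chr19:53528895-53529144, plus strand): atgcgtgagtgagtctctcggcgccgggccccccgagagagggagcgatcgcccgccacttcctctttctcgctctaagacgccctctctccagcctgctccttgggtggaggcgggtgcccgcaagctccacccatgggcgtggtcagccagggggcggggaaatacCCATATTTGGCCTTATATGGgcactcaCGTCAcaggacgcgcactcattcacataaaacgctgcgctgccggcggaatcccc
Dusp16 (chr6:134792629-134792878, minus strand): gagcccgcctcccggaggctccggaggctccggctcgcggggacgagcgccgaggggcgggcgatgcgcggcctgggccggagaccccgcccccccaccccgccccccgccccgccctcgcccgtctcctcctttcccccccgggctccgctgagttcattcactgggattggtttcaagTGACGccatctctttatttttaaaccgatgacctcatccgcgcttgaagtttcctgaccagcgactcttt
Rgs2 (chr1:144004150-144004399, minus strand): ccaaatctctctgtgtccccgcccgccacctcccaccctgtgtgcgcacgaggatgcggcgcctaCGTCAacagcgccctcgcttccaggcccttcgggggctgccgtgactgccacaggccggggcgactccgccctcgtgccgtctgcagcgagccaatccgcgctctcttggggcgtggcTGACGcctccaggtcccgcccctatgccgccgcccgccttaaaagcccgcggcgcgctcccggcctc
A match describes the letters only. Of the 4 genes shown, Dusp5, Dusp16 and Rgs2 were higher in every adipose library than in LN, and Dusp1 was not. Of the searched genes without a match, Dusp10 was also higher in every adipose library, and Dusp2 and Dusp6 were lower in each. Rgs16, also without a match, had 17.8, 47.9, 20.5 and 98.5 CPM in the labelled Med23 KO, 10-month Foxp3Cre, obese and lean libraries. All were above the 15.7 CPM of LN, though the obese counting interval against LN included 1.

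Among the phosphatases of the nucleus, Dusp5, which is specific for ERK, set the adipose libraries apart from LN. It stood at 402 CPM in the library labelled Med23 KO, 379 CPM in 10-month Foxp3Cre, 285 CPM in obese and 429 CPM in lean adipose Tregs, against 17.8 CPM in LN Tregs. All 4 adipose libraries lay far above LN. The ratio to LN was 21.2 for 10-month Foxp3Cre (95% counting interval 18.2 to 24.9), 14.2 for obese (12.1 to 16.7) and 21.8 for lean (18.7 to 25.6).

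Dusp4, a nuclear phosphatase of ERK and JNK, showed the same split at a lower level. Its values were 61.4 CPM in the library labelled Med23 KO, 41.1 CPM in 10-month Foxp3Cre, 35.5 CPM in obese and 34.0 CPM in lean adipose Tregs, against 3.30 CPM in LN. Its ratio to LN was 12.5 for 10-month Foxp3Cre (8.68 to 18.5), 9.55 for obese (6.60 to 14.3) and 9.32 for lean (6.46 to 13.9). The LN value rests on 32 reads, which sets the width of these intervals.

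Dusp1, an immediate early gene whose product acts mainly on p38 and JNK, did not separate adipose from LN. It stood at 671 CPM in the library labelled Med23 KO, 1465 CPM in 10-month Foxp3Cre, 2011 CPM in obese and 913 CPM in lean adipose Tregs, against 1162 CPM in LN. The obese library was the highest, and LN lay between the lean and the 10-month Foxp3Cre libraries. Relative to LN, Dusp1 was 1.26-fold higher in 10-month Foxp3Cre (1.23 to 1.29) and 1.54-fold higher in obese (1.5 to 1.58), but 1.40-fold lower in lean adipose Tregs (1.36 to 1.45).

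Dusp2, a nuclear phosphatase first known from activated lymphocytes, was highest in LN. It stood at 28.9 CPM in the library labelled Med23 KO, 93.5 CPM in 10-month Foxp3Cre, 136 CPM in obese and 129 CPM in lean adipose Tregs, against 147 CPM in LN. Outside the library labelled Med23 KO, the adipose libraries lay within 2-fold of LN. The shortfall against LN was 1.57-fold in 10-month Foxp3Cre (1.44 to 1.71), 1.22-fold in obese (1.12 to 1.32) and 1.26-fold in lean (1.16 to 1.36).

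Dusp6, the cytoplasmic counterpart of Dusp5 and also specific for ERK, had its highest level in LN Tregs, unlike Dusp5. It was listed at 0 in the library labelled Med23 KO and stood at 27.0 CPM in 10-month Foxp3Cre, 24.3 CPM in obese and 6.09 CPM in lean adipose Tregs, against 54.5 CPM in LN. Every adipose library was under LN. It was 2.01-fold lower than LN in 10-month Foxp3Cre (1.73 to 2.34), just short of 2-fold once 1 was added to both values, 2.53-fold lower in obese (2.13 to 3.01) and 9.87-fold lower in lean (7.41 to 13.4). There were 14.0, 11.7 and 70.5 Dusp5 reads per Dusp6 read in the 10-month Foxp3Cre, obese and lean libraries, against 0.328 in LN.

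Dusp10 and Dusp16, whose products act on JNK and p38 rather than ERK, were both higher in adipose Tregs. Dusp10 stood at 481 CPM in the library labelled Med23 KO, 435 CPM in 10-month Foxp3Cre, 153 CPM in obese and 172 CPM in lean adipose Tregs, against 26.2 CPM in LN. The 2 libraries of 10-month mice lay above the 2 adipose libraries of 4-month mice. Its ratio to LN was 16.6 for 10-month Foxp3Cre (14.6 to 18.9), 5.20 for obese (4.54 to 5.98) and 5.95 for lean (5.20 to 6.82).

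Dusp16 had 15.5 CPM in the library labelled Med23 KO, 68.4 CPM in 10-month Foxp3Cre, 90.8 CPM in obese and 67.2 CPM in lean adipose Tregs, against 2.68 CPM in LN. LN was the lowest and the library labelled Med23 KO the next lowest. The ratio to LN was 25.5 for 10-month Foxp3Cre (17.2 to 39.3), 30.1 for obese (20.4 to 46.4) and 22.7 for lean (15.3 to 35.1), with only 26 reads in LN behind it.

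Rgs1 was lower and Rgs2 higher in adipose Tregs than in LN. Rgs1, which limits the response of lymphocytes to chemokines, stood at 1790.4 CPM in the library labelled Med23 KO, 2971 CPM in 10-month Foxp3Cre, 3089.8 CPM in obese and 2782 CPM in lean adipose Tregs, against 4509.8 CPM in LN. Every adipose library was under LN, by 1.52-fold in 10-month Foxp3Cre (1.5 to 1.54), 1.64-fold in obese (1.62 to 1.67) and 1.79-fold in lean (1.76 to 1.82). With all 3 by CPM, the ratios to LN were 0.659 in 10-month Foxp3Cre, 0.685 in obese and 0.617 in lean. Rgs2, which acts mainly on the Gq class of alpha subunits, had 2478 CPM in the library labelled Med23 KO, 3308 CPM in 10-month Foxp3Cre, 2209 CPM in obese and 2653 CPM in lean adipose Tregs, against 954 CPM in LN. All adipose libraries were above LN, by 3.47-fold in 10-month Foxp3Cre (3.39 to 3.55), 2.06-fold in obese (2.01 to 2.11) and 2.52-fold in lean (2.46 to 2.58). Centred on the median gene, the obese log2 ratio was 0.60 and did not pass 2-fold.

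Within a library there were 1.38, 1.11, 0.715 and 0.953 Rgs2 reads per Rgs1 read in the labelled Med23 KO, 10-month Foxp3Cre, obese and lean adipose libraries, against 0.212 in LN. This ratio does not depend on the scaling of the library. The genes are close neighbours on chromosome 1, with Rgs13 between them in the RefSeq gene order. Rgs13 was listed at 0 in all libraries but the one labelled Med23 KO, where it had 7.18 CPM.

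Rgs16, an inducible regulator of Gi and Gq signalling in T cells, varied most among the adipose libraries of the 3 Rgs genes. It stood at 17.8 CPM in the library labelled Med23 KO, 47.9 CPM in 10-month Foxp3Cre, 20.5 CPM in obese and 98.5 CPM in lean adipose Tregs, against 15.7 CPM in LN. The lean library was the highest, while the obese one lay near LN. The ratio to LN was 3.05 for 10-month Foxp3Cre (2.54 to 3.69), 1.16 for obese with an interval that includes 1 (0.92 to 1.47), and 5.69 for lean (4.78 to 6.81).

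**Figure D1:**
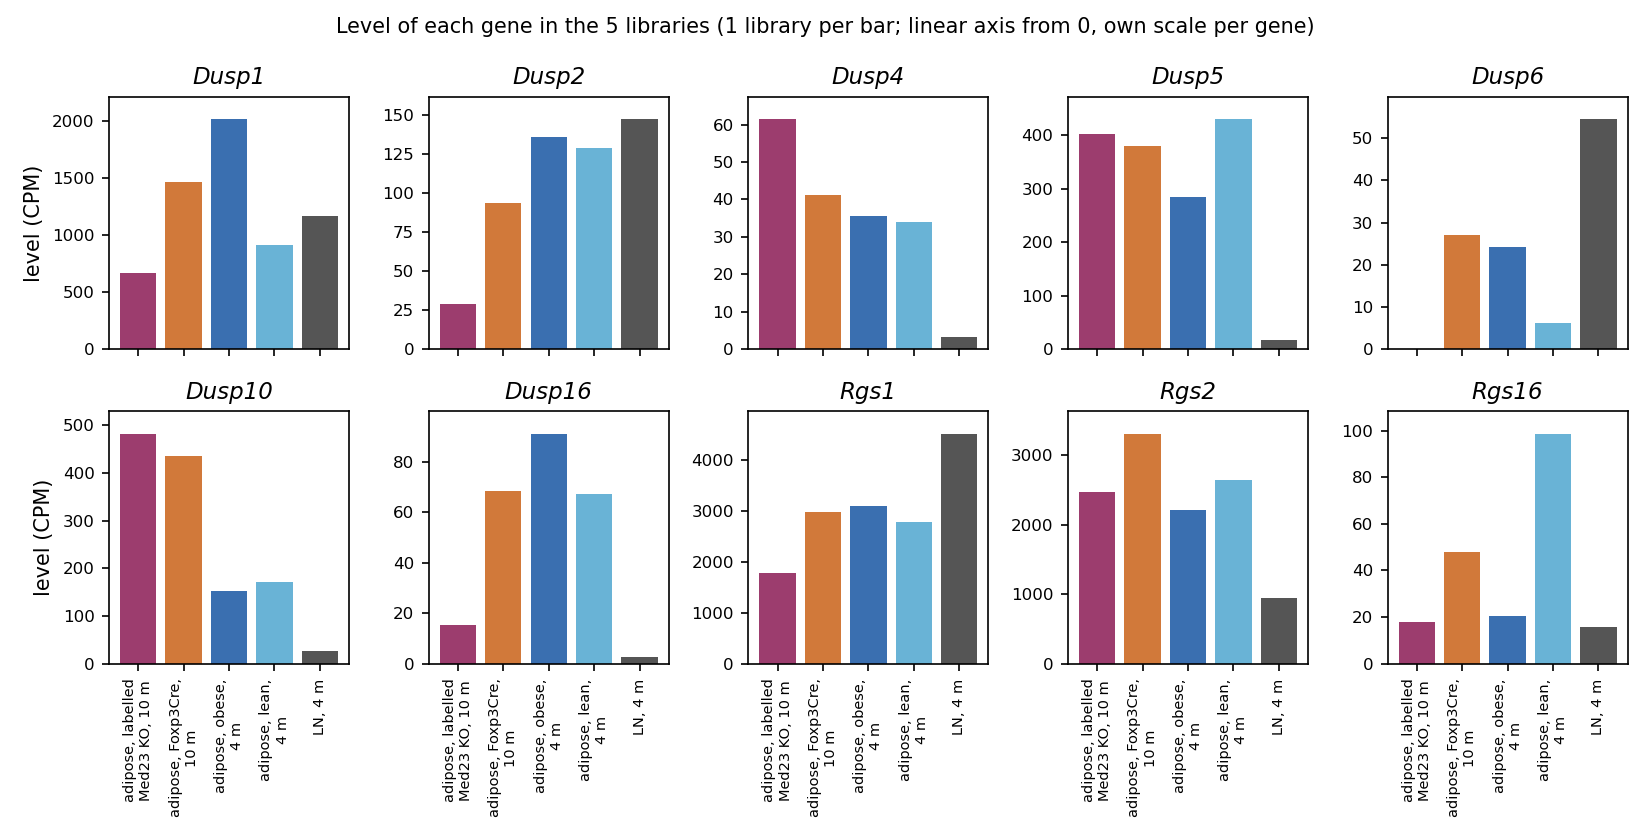
Level of each of the 10 genes in CPM (vertical axis, linear from 0, own scale per gene) in the 5 libraries, 1 bar per library and no error bars because each group is 1 library. Dusp4, Dusp5, Dusp10, Dusp16 and Rgs2 are lowest in LN, and Dusp2, Dusp6 and Rgs1 are highest there. Rgs16 is also lowest in LN, at 15.7 CPM, against 17.8 CPM in the library labelled Med23 KO and 20.5 CPM in obese.

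Counted at 2-fold, 6 of the 10 genes were higher in 10-month Foxp3Cre adipose than in LN Tregs, where 34.3% of all measured genes were, and 0 were lower, against 29.8% of all genes. In obese against LN 5 were higher (41.7% of all genes) and 1 lower (23.7%), and in lean against LN 6 were higher (37.6%) and 1 lower (32.1%). The median log2 ratio of the 10 genes was 1.67, 0.83 and 1.89 in these comparisons, beside 0.09, 0.44 and 0.14 over all measured genes. The shares over all genes include many of low level. Among genes averaging 100 or more in the pair, 22.0% were higher and 25.9% lower in 10-month Foxp3Cre. These shares were 19.0% and 29.8% in obese, and 21.4% and 30.4% in lean. The counts of the 10 genes have no such floor, and Dusp4 and Dusp16, higher in all 3 comparisons, stood under 100 in every library. Of the genes above it, Dusp5 and Rgs2 were higher in all 3 comparisons, and Dusp10 was above it and higher in 10-month Foxp3Cre only. Dusp1, Dusp2 and Rgs1 were above it and passed 2-fold in none. The comparisons share the LN library. The authors' deposited table marked 6 of the 10 genes as changed in obese (41.9% of all genes listed) and 7 in lean (53.2%), by a rule the labels do not state.

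**Figure D2:**
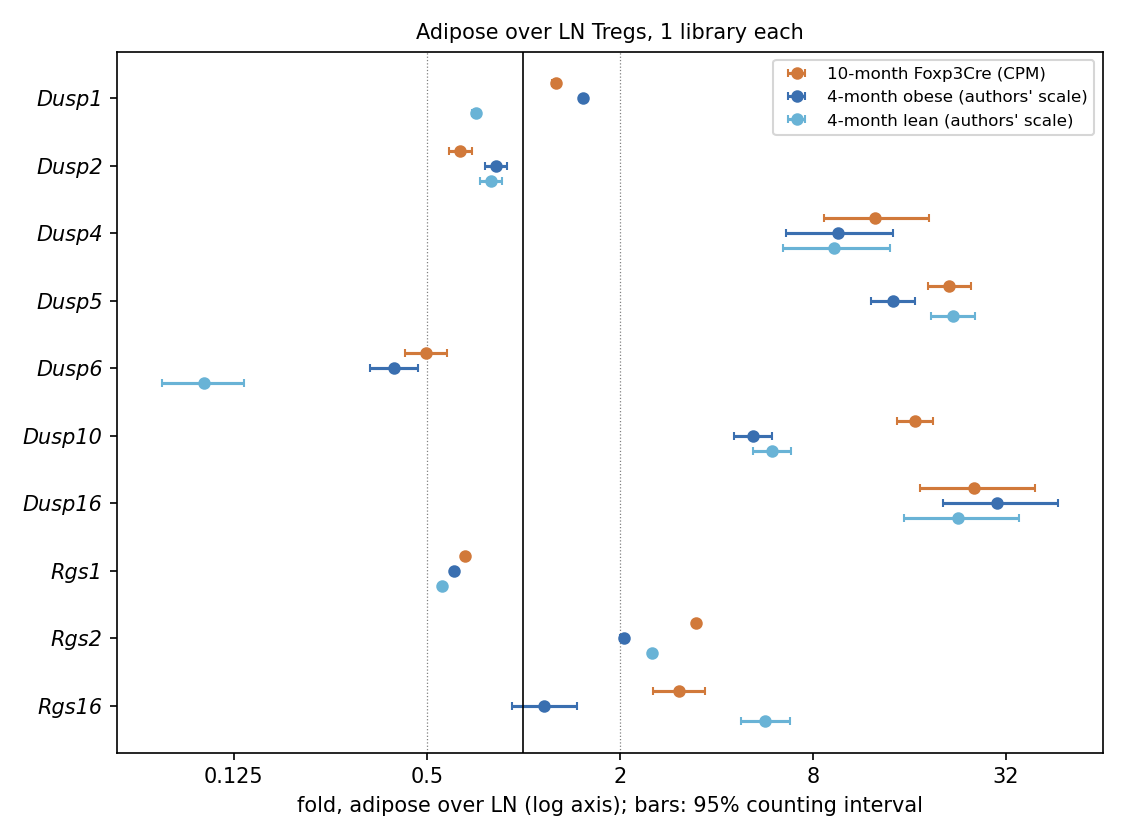
Ratio of each gene in adipose over LN Tregs (horizontal log axis, fold), with the 95% counting interval as bars, for the 10-month Foxp3Cre, obese and lean adipose libraries. Ratios are in CPM for 10-month Foxp3Cre and on the authors' scale for obese and lean. Dusp4, Dusp5, Dusp10, Dusp16 and Rgs2 lie past the dotted 2-fold line in all 3 comparisons, Rgs2 in obese only without centring on the median gene, and Dusp1 lies on both sides of 1.

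The make-up of each family differed between tissues as a share of its own reads, a measure that does not depend on library scaling. Dusp1 made up 40.4%, 58.4%, 73.5% and 52.1% of the reads of the 7 Dusp genes in the labelled Med23 KO, 10-month Foxp3Cre, obese and lean adipose libraries, against 82.2% in LN. Dusp5 took 24.2%, 15.1%, 10.4% and 24.5% in the same adipose libraries, against 1.26% in LN. Dusp10 took 29.0%, 17.3%, 5.61% and 9.83%, against 1.85% in LN. Among the 3 Rgs genes Rgs1 had 41.8%, 47.0%, 58.1% and 50.3% of the reads in the adipose libraries, against 82.3% in LN. The summed level of the 3 Rgs genes was 4286, 6327, 5320 and 5534 CPM in the adipose libraries, against 5479 CPM in LN.

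**Figure D3:**
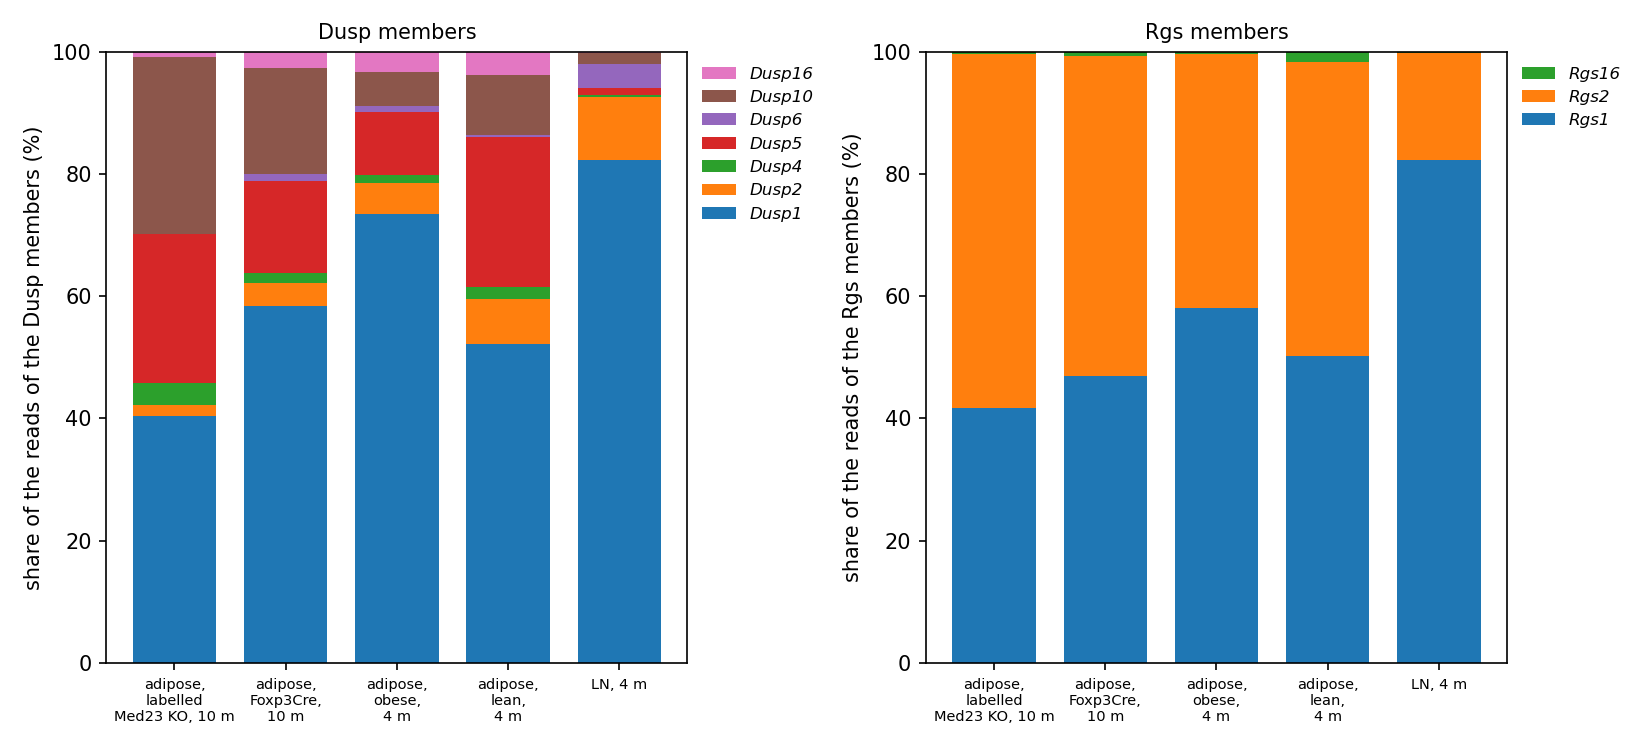
Share of the reads (vertical axis, percent) of the 7 Dusp genes (left) and the 3 Rgs genes (right) taken by each gene in the 5 libraries, 1 stacked bar per library. Dusp1 and Rgs1 take 82.2% and 82.3% in LN, and less in each adipose library.

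Levels of different genes were compared per kilobase of transcript, using the longest protein-coding transcript of each gene. In LN Rgs1 led with 1174 CPM per kilobase, followed by Dusp1 with 584 and Rgs2 with 316. Rgs2 led in the library labelled Med23 KO (820.1 CPM per kilobase), in 10-month Foxp3Cre (1095) and in lean adipose Tregs (878), while Dusp1 led in obese adipose Tregs (1011). The same 3 genes took the first 3 places in every library. Dusp6 was last of the 10 in every adipose library but the fifth in LN, with 19.5 CPM per kilobase, and Dusp16 was last in LN with 0.525.

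The 10-month comparison asks how adipose Tregs meant to lack Med23 differ. Of the 10 genes 6 were lower in the library labelled Med23 KO than in Foxp3Cre, where 34.9% of all genes were lower, and 0 were higher, against 28.6% of all genes. Their median log2 ratio was -1.23, beside -0.15 over all genes, and that over all genes was 0.15 on the CPM scale. Among genes averaging 100 or more, 19.7% were lower and 10.7% higher. The count of the 10 genes has no such floor: Dusp2, Dusp6, Dusp16 and Rgs16, all counted as lower, averaged under it. Of the genes above it, Dusp1 and Rgs1 were lower, and Dusp5, Dusp10 and Rgs2 did not pass 2-fold. The authors' deposited table marked 6 of the 10 (40.8% of all genes listed).

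In the library labelled Med23 KO, Dusp16 had 13.9 scaled counts, against 75.9 in Foxp3Cre, a 5.46-fold lower value (4.27 to 7.08). Dusp2 had 26.0, against 104, or 3.99-fold lower (3.32 to 4.82). Rgs16 had 16.0, against 53.1, or 3.31-fold lower (2.61 to 4.24). These 3 genes of modest level were lower by more than 3-fold on the authors' scale, and by CPM their ratios were 0.226 for Dusp16, 0.31 for Dusp2 and 0.373 for Rgs16. Dusp6 was listed at 0, against 30.0 scaled counts from 261 reads in Foxp3Cre, and the authors' deposited table gives it a log2 ratio of -5.91. With a listed 0 no ratio can be formed without an added value, so that figure is not a measured fold.

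Of the most read genes, Dusp1 had 603 scaled counts in that library, against 1627 in Foxp3Cre, or 2.70-fold lower (2.59 to 2.80). Rgs1 had 1609.7, against 3298, or 2.05-fold lower (2.0 to 2.1), but by CPM its ratio was 0.603 and did not pass 2-fold, which leaves 5 genes lower on that scale and also with centring on the median gene. Rgs2 had 2228, against 3672, or 1.65-fold lower (1.61 to 1.68).

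The other 3 members lay closer to Foxp3Cre on the authors' scale. Dusp5 was 1.17-fold lower (1.1 to 1.23) and Dusp10 1.12-fold lower (1.06 to 1.18) on the authors' scale, and by CPM their ratios were 1.06 and 1.11, the other direction. Dusp4 was 1.21-fold higher (1.03 to 1.41) on the authors' scale, and by CPM its ratio was 1.49. The Dusp10 reads per Dusp1 read numbered 0.717 in the library labelled Med23 KO, against 0.297 in Foxp3Cre. Macrophage and dendritic cell markers were also lower there, 9 of the 10 measured, and erythroid markers higher, 5 of 5, and their part in these ratios was not tested.

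**Figure D4:**
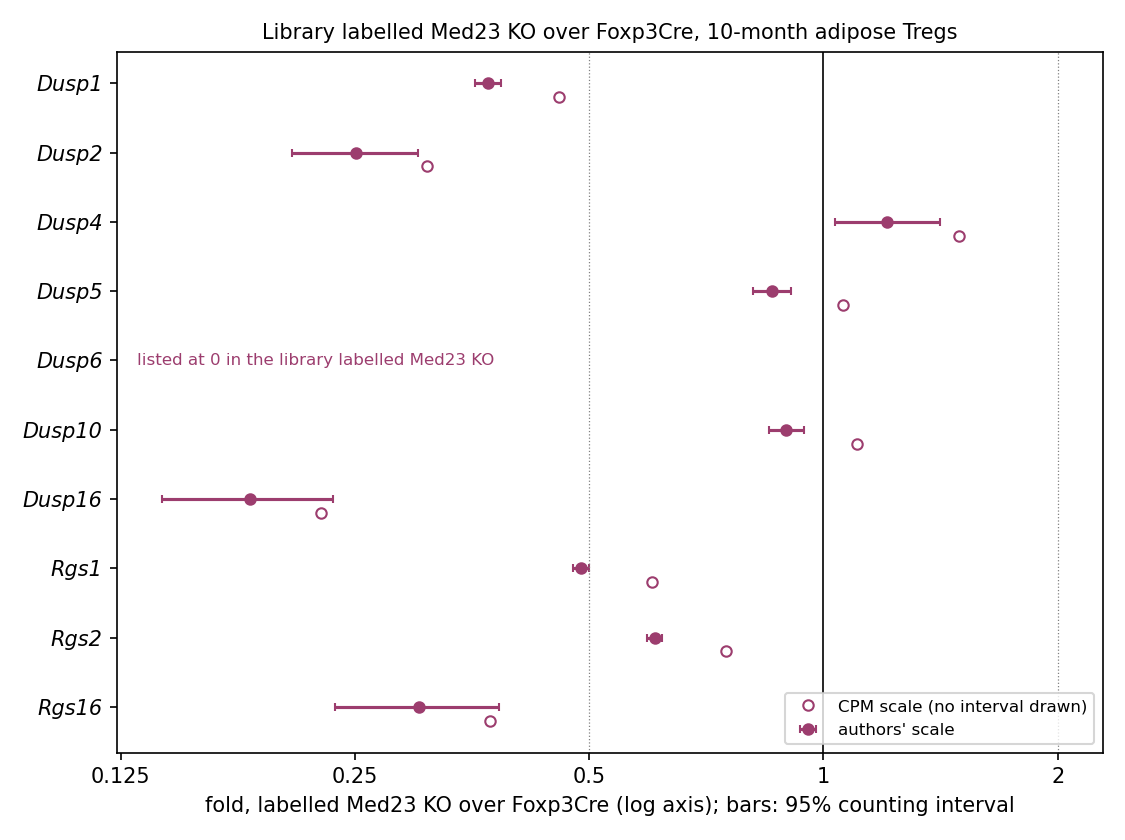
Ratio of each gene in the library labelled Med23 KO over 10-month Foxp3Cre adipose Tregs (horizontal log axis, fold), on the authors' scale with 95% counting intervals (filled) and by CPM (open). Dusp2, Dusp16 and Rgs16 lie farthest below 1, Dusp5 and Dusp10 lie on opposite sides of 1 by scale, and Dusp6 has no ratio because it is listed at 0.

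Obese and lean adipose Tregs were compared in CPM, since they stand in separate tables. At 2-fold, 2 genes were higher in obese, where 34% of all genes were higher, and 1 was lower, against 18.6% of all genes. Among genes averaging 100 or more, 6.14% were higher and 4.78% lower. The counts of the Dusp and Rgs genes have no such floor, and of those passing 2-fold only Dusp1 averaged above it. Dusp6 was 3.99-fold higher (2.92 to 5.54), with 24.3 CPM in obese, against 6.09 CPM in lean. Dusp1 was 2.20-fold higher (2.14 to 2.27), with 2011 CPM, against 913 CPM, and its log2 ratio of 0.94 after centring on the median gene did not pass 2-fold. Rgs16 was 4.79-fold lower (4.03 to 5.73), with 20.5 CPM in obese, against 98.5 CPM in lean. Dusp5 was 1.51-fold lower (1.43 to 1.59), and the counting intervals of Dusp2 (0.966 to 1.15) and Dusp4 (0.881 to 1.24) included 1. The obese library also had the highest macrophage marker sum and the lean library the highest fibroblast marker sum, and their part was not tested.

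Age was compared in adipose Tregs of 10-month Foxp3Cre and 4-month lean mice, which also differ in the sex-linked genes. They differ too in Gapdh (639 CPM, against 1.05 CPM in lean) and in the fibroblast marker sum (48.9 CPM, against 982 CPM). Of 12 macrophage and dendritic cell markers measured, 9 were lower at 10 months and 0 higher. The part of these differences was not tested. By the 2-fold rule 2 genes were higher at 10 months, against 28.4% of all genes, and 1 was lower, against 32.7%. Among genes averaging 100 or more, 11.5% were higher and 10.5% lower. The counts of the 10 genes have no such floor, and of those passing 2-fold only Dusp10 averaged above it. Dusp6 was 4.44-fold higher (3.29 to 6.10), with 27.0 CPM at 10 months, against 6.09 CPM in lean. Dusp10 was 2.53-fold higher (2.38 to 2.68), with 435 CPM, against 172 CPM. Rgs16 was 2.06-fold lower (1.83 to 2.31), with 47.9 CPM, against 98.5 CPM, a call lost with 5 added in place of 1 or with other centring. Dusp1 was 1.61-fold higher (1.56 to 1.65), and the interval of Dusp16 (0.908 to 1.14) included 1.

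Genes that ERK signalling is known to induce early, such as Fosl2, Ier3 and Egr1, were mostly higher in adipose Tregs than in LN, as Dusp4 and Dusp5 were and Dusp6 was not. Of the 17 measured, 12 were higher and 0 lower in 10-month Foxp3Cre, 12 higher and 2 lower in obese, and 11 higher and 2 lower in lean, each against LN, where 34.3%, 41.7% and 37.6% of all genes were higher. Their median log2 ratios were 1.98, 1.52 and 1.53. In lean against LN the highest ratios were those of Ier3, with 213 scaled counts, against 2.06, and Fosl2, with 934, against 13.5. The lowest were those of Ier2, with 169, against 444, and Fos, with 189.7, against 462. In the library labelled Med23 KO 11 of 17 were lower than in Foxp3Cre, against 34.9% of all genes, and 1 was higher, with a median of -1.71. Of the 11, Fos (357 CPM, against 632) and Myc (66.6 CPM, against 134) did not pass 2-fold by CPM. By CPM 31.3% of all genes were lower. Ier3 was listed at 0, against 235 scaled counts in Foxp3Cre, and Egr1 at 0, against 142, while Nr4a2 had 569.8, against 247, and Nr4a3 1219.6, against 842.

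The shares of all genes higher or lower, given above, are the background for the counts of the lists that follow. Their counts for the library labelled Med23 KO are on the authors' scale and were not made by CPM. Of the other dual-specificity phosphatases, 4 were higher and 5 lower of 11 measured in 10-month Foxp3Cre, 5 higher and 3 lower of 12 in obese, and 3 higher and 4 lower of 11 in lean, each against LN. Dusp14, a phosphatase that dampens T cell receptor signalling, had 101 CPM in 10-month Foxp3Cre, 53.9 CPM in obese and 70.0 CPM in lean adipose Tregs, and was listed at 0 in LN. Dusp22, which also restrains T cell receptor signalling, had 7.56 CPM in 10-month Foxp3Cre and 8.40 CPM in obese and was listed at 0 in lean, against 33.4 CPM in LN. Against Foxp3Cre, 4 of 10 were lower in the library labelled Med23 KO and 1 was higher: Dusp3 was listed at 0, against 19.8 scaled counts, and Dusp12 had 4.50, against 0.

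Few other Rgs genes were measured, and Rgs10 and Rgs19, which act on Gi subunits, were lower in 10-month Foxp3Cre, obese and lean adipose Tregs than in LN. Of those measured, 4 of 7 were lower in 10-month Foxp3Cre, 4 of 7 in obese and 3 of 5 in lean than in LN, and 2, 2 and 0 were higher. Rgs10 had 57.8 CPM in 10-month Foxp3Cre, 176 CPM in obese and 68.1 CPM in lean, against 514 CPM in LN. Rgs19 had 14.3, 43.5 and 46.5 CPM in the same adipose libraries, against 223 CPM in LN. Against Foxp3Cre, 3 of 8 were higher in the library labelled Med23 KO and 1 was lower, with Rgs12 at 24.8 scaled counts, against 5.29.

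Of the MAP kinase cascade genes measured, 7 of 19 were higher and 3 lower in 10-month Foxp3Cre than in LN, 5 of 18 higher and 1 lower in obese, and 7 of 18 higher and 4 lower in lean. The share higher is near that of all genes for 10-month Foxp3Cre (34.3%) and lean (37.6%), and for obese it is under the 41.7%. Map2k3, a kinase of p38, had 139 CPM in 10-month Foxp3Cre, 151 CPM in obese and 185 CPM in lean, against 26.2 CPM in LN. Mapk9, which encodes a JNK, was low in the lean library alone of these, with 73.9, 76.0 and 8.08 CPM in the same adipose libraries, against 77.1 CPM in LN. In the library labelled Med23 KO 7 of 18 were lower than in Foxp3Cre and 1 was higher, and Mapk8, another JNK gene, had 2.15 scaled counts, against 67.1. Sprouty and Spred genes, which brake the pathway above ERK, were lower in 3 of 3 measured there, with Spry1 at 30.7, against 66.0. By CPM Spry1 had 34.2, against 59.5, and did not pass 2-fold. Spred2 had only 1.17 scaled counts, against 6.10. Against LN the list was mixed: 0 were higher and 1 lower of 3 measured in 10-month Foxp3Cre, 2 higher and 1 lower of 4 in obese, and 2 higher and 0 lower of 4 in lean.

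Among the targets of RGS proteins, Gnai2, a main Gi subunit of lymphocytes, had 207 CPM in 10-month Foxp3Cre, 98.3 CPM in obese and 85.6 CPM in lean, against 334 CPM in LN. Of these 3, it passed 2-fold only in the obese and lean libraries, which stand apart in Gapdh and the sex-linked genes. Gna15, a Gq class subunit of blood cells, had 79.0, 36.4 and 109.6 CPM in the same adipose libraries, against 24.2 CPM in LN. Of the alpha subunits measured, 3 were higher and 1 lower of 8 in 10-month Foxp3Cre against LN, 1 was higher and 1 lower of 8 in obese against LN, 3 higher and 3 lower of 8 in lean, and 1 higher and 3 lower of 9 in the library labelled Med23 KO against Foxp3Cre. Among G protein coupled receptors of T cells, 10 were higher and 4 lower of 18 in 10-month Foxp3Cre, 10 higher and 1 lower of 18 in obese, and 8 higher and 2 lower of 17 in lean, each against LN, where 34.3%, 41.7% and 37.6% of all genes were higher. In the library labelled Med23 KO 11 of 18 were lower than in Foxp3Cre and 4 higher, with Ccr1 listed at 0, against 514 scaled counts, and Ccr2 at 18.2, against 677.

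**Figure D5:**
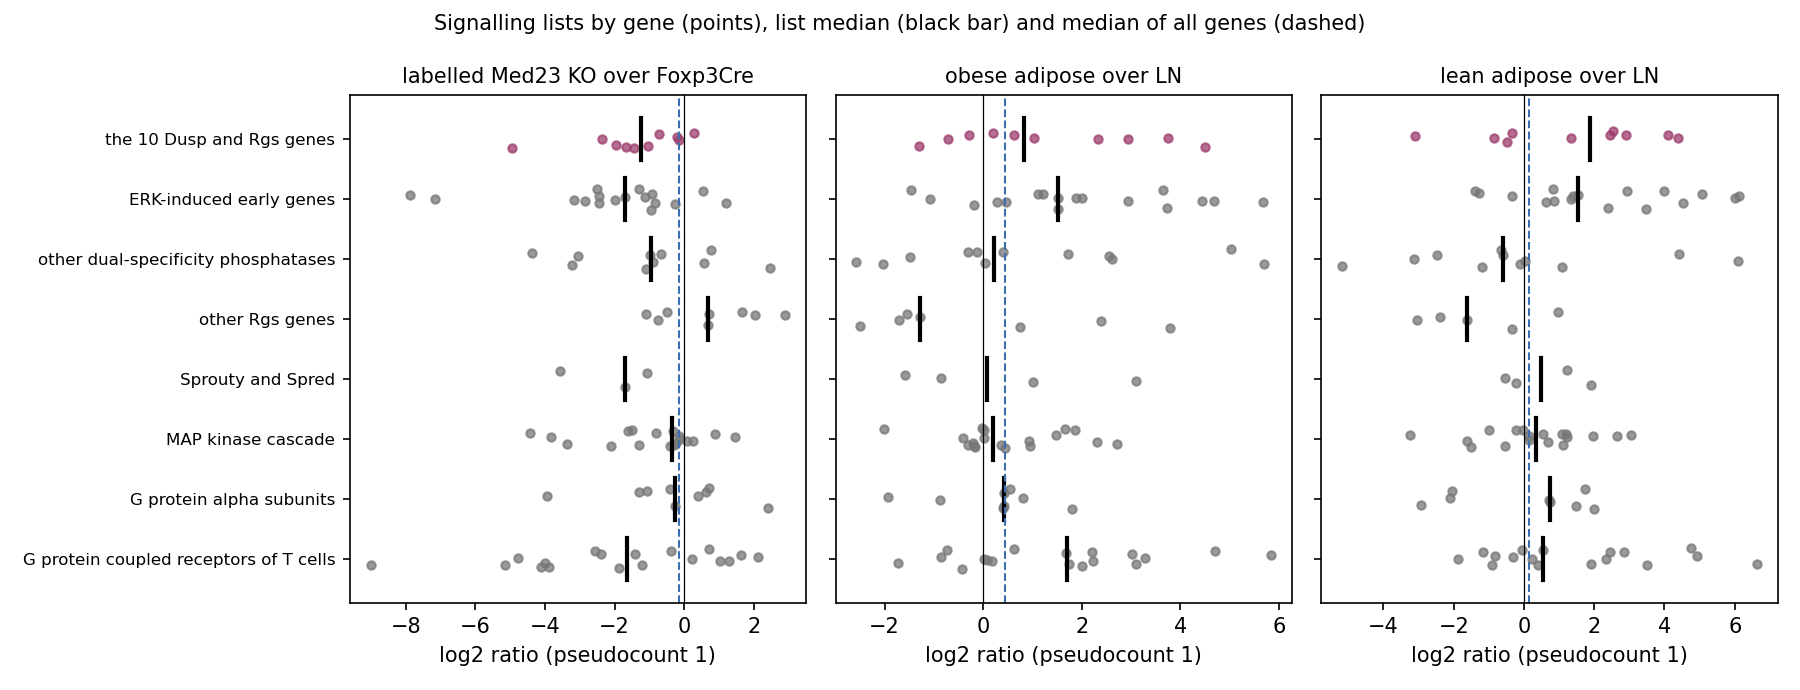
Log2 ratio with 1 added to both values (horizontal axis) of every measured gene (points) of the 10 Dusp and Rgs genes and of 7 signalling lists, with the list median (black bar) and the median of all measured genes (dashed line), for the library labelled Med23 KO over Foxp3Cre, obese over LN and lean over LN. The early genes have medians of -1.71, 1.52 and 1.53, and the 10 genes of -1.23, 0.83 and 1.89.

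Profiles over the 5 libraries were compared as the root mean square difference of log2(CPM + 1) after centring each gene, among 8338 genes, where smaller is more alike. The genes nearest to Dusp1 were Me2 (0.08), Prpf8 and Mrpl10, and the nearest to Dusp2 was Sh3bgrl3 (0.09). Dusp5 lay nearest to Jak2 (0.16), which had 1778, 1814, 1354 and 1731 CPM in the labelled Med23 KO, 10-month Foxp3Cre, obese and lean adipose libraries, against 105 CPM in LN. Dusp4 was nearest to Ptprs (0.09), Dusp6 to Iqcb1 (0.13), Dusp10 to Cdr2 (0.13), Dusp16 to Ptpn9 (0.16), Rgs1 to Ccng1 (0.06), Rgs2 to Gpat4 (0.06) and Rgs16 to Bcl2l1 (0.25). Over 5 libraries this is a description of likeness only. Among the 10 genes themselves, Dusp4 and Dusp10 (0.46), Dusp1 and Rgs1 (0.46) and Dusp4 and Dusp5 (0.50) were the most alike, while Dusp5 and Dusp6 differed by 3.36.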

How the data were processed

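The mRNA libraries were made with a TruSeq kit, per the labels' protocols. Reads were handled with TopHat2 2.0.9 and Bowtie2 2.0.6 on build mm8, per the submitters' processing notes. The authors deposited 3 tables of 2 libraries each, with a scaled read signal per gene, their log2 ratio and a mark for changed genes; the sources used here do not say how they scaled. Values under 1 are listed as 0. Every other value was a whole multiple of 1 step per library (within 0.01), and the reads so obtained served for exact 95% Clopper-Pearson counting intervals and not for tests, since each group is 1 library. The authors also deposited a p-value and a q-value per gene, per the file headers, from 1 library against 1, and these were not used here. Ratios used the authors' scale within a table and CPM across tables. The LN library stands in 2 tables. Genes were counted past 2-fold with a pseudocount of 1 among those at 1 or more in either library.

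From each pathway list the 2 highest and 2 lowest ratios could be named, and from them a few are given; for each gene the 3 nearest profiles used genes at 20 CPM or more in at least 1 library. Symbols and transcript lengths came from GENCODE M21, promoters from RefSeq. The members and lists were chosen with earlier results of these data known. The calculations were tested on simulated data and used pandas 2.3.3, matplotlib 3.10.9, scipy 1.17.1 and numpy 2.4.6 under Python 3.11.15. Alternatives were other pseudocounts, filters, centring, scalings and fold thresholds.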

Additional observations from a re-analysis of the deposited data

Results flagged for a closer look

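Dusp1 lay on both sides of LN among the adipose libraries: the ratio of adipose over LN was 1.26 in 10-month Foxp3Cre, 1.54 in obese and 0.712 in lean Tregs. It was noted because the same contrast gave opposite directions. The difference between these ratios was not tested, as each rests on 1 library, and all 3 share the LN library.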

How the results depend on the processing

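No paired analysis was possible because each group is 1 library, and for the same reason no replicate could be left out. Of 96 counts under alternatives, 80 stayed within 1.5 times the value given above and 16 moved. At 1.5-fold, genes lower numbered 2 in lean against LN, 2 in obese against LN, 2 in obese against lean and 3 in 10-month Foxp3Cre against LN. At 4-fold, 0 were lower in obese against LN, 2 were lower in the library labelled Med23 KO against Foxp3Cre, 0 were higher in obese against lean, and 0 were higher and 0 lower in 10-month Foxp3Cre against lean. With log2 ratios centred on the median gene, 2 were lower in obese against LN, 1 higher in obese against lean (Dusp6, without Dusp1), 0 lower in 10-month Foxp3Cre against lean and 1 lower in 10-month Foxp3Cre against LN. Scaling by the median ratio of 3520 shared genes gave 0 lower in 10-month Foxp3Cre against lean and 1 lower against LN, and a pseudocount of 5 gave 0 lower against lean. These follow from the thresholds and shifts themselves. Of single ratios, 289 moved little and 71 moved further. The log2 ratio changed sign in 6 genes whose ratio was near 1, and the values in brackets are log2 ratios. By CPM these were Dusp5 (0.08) and Dusp10 (0.14) in the library labelled Med23 KO against Foxp3Cre. With centring they were Rgs16 (-0.24) in obese against LN and Dusp2 (-0.12), Dusp4 (-0.14) and Rgs1 (-0.05) in obese against lean. Few reads stood behind Dusp4 and Dusp16 in LN (32 and 26), and Dusp6, at 0 in the library labelled Med23 KO, has no ratio there.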
